A study of Mus musculus with 48 samples.

Results

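Transcripts of 10 genes of the folding machinery of the endoplasmic reticulum (ER) were followed over 48 hourly pools of mouse liver. They are the disulfide isomerases P4hb, Pdia3, Pdia4, Pdia5, Pdia6 and Txndc5, the oxidase Ero1a (older symbol Ero1l), the lectin chaperones Calr and Canx, and the prolyl isomerase Ppib. Members were taken by gene symbol and comprise 10 of 18194 named genes and 21 of 45101 probe sets. A gene is represented below by its probe set of highest mean intensity, and the other probe sets are given beside it where they differ. Young male C57BL/6J mice were entrained to equal light and dark phases and released into constant darkness. Livers of 3 to 5 mice were pooled at each hour from circadian time (CT) 18 to CT65, and each pool was hybridised to 1 Affymetrix mouse genome array. CT0, CT24 and CT48 mark subjective dawn, and CT36 and CT60 subjective dusk. All animals were untreated wild types, so the comparisons are between hours and between the second cycle (CT42 to CT65) and the first (CT18 to CT41). The spread reported is between pools, not between mice, and in whole liver fewer cells of a type cannot be told apart from less RNA per cell.

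Proteins that enter the ER fold with the help of several enzyme systems. Disulfide isomerases form and reshuffle the bonds between cysteines and are reoxidised by Ero1a, which passes the electrons to oxygen. Calreticulin (Calr, soluble) and calnexin (Canx, membrane-bound) hold glycoproteins by their trimmed sugars and work with Pdia3. Hspa5 (BiP), the Hsp70 of the ER, binds unfolded chains, and in the unfolded protein response the sensors Ire1, Perk and Atf6 raise many of these transcripts together. Hepatocytes secrete most plasma proteins and carry a large ER.

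The ER stress response element (CCAAT, 9 bases, CCACG), read on both strands, is the sequence through which Atf6 and NF-Y act on chaperone genes. It lay in the promoters of 3 of the 10 genes, in RefSeq sequence of build GRCm38.p6 from 250 bases before to 50 after the gene's start, and in 39 of 32851 promoters of that length (0.119%). The 3 are shown with that of Hspa5 because they carry the element in full, so that the rhythms given below can be set beside it. Each is written in the direction of its gene with the element in capitals. It lies on the opposite strand in Calr.
Pdia6, chr12:17266470-17266530, plus strand: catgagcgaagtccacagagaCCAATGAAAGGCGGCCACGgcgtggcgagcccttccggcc
Calr, chr8:84847054-84847114, minus strand: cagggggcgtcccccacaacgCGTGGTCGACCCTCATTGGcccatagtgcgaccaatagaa
Canx, chr11:50325779-50325839, minus strand: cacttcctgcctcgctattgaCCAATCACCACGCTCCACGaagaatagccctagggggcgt
Hspa5, chr2:34772004-34772064, plus strand: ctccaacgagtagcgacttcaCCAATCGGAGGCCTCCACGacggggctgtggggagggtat

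The first base of the element lay 98 bases before the start of Pdia6, 162 before Calr, 145 before Canx and 65 before Hspa5. The promoters of P4hb, Pdia3, Pdia4, Pdia5, Txndc5, Ero1a and Ppib did not hold these letters in this window. Its second version, ERSE-II (ATTGG, 1 base, CCACG), was in none of the 10 and in 0.0365% of all promoters. CCACG alone was in 9 of the 10 against 32.8% of promoters, and CCAAT in 7 of the 10 against 37.4%. Both of these are contained in the full element. The UPRE (TGACGTGG) was found in Txndc5 and in 0.676% of promoters, and the E-box CACGTG, the letters bound by the clock proteins, in Txndc5 and Calr and in 7.15% of promoters.

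The last 6 pools, CT60 to CT65, stood apart from the other 42. Their upper quartile of intensity was 797.1 to 944.8, against 891.3 to 1099.4 in the rest, and their median correlation with the other arrays was 0.984 to 0.990, against 0.989 to 0.995. Results that rest on them are therefore given with and without them. Of the defining hepatocyte markers measured, 5 of 5 were far above background, with a summed intensity of 3007080 to 3168860 in CT60 to CT65 and 2988260 to 3137170 in CT36 to CT41. Pancreatic acinar transcripts (4 measured) summed to 201552 at CT25 and 54117 at CT46, and to at most 350.7 in any other pool. Without CT25 alone, 3 of the 10 genes were called at 12 h and 7 at 24 h in the fits described below, and without CT46 alone 4 and 8, beside 4 and 7 with all pools.

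**Figure D1:**
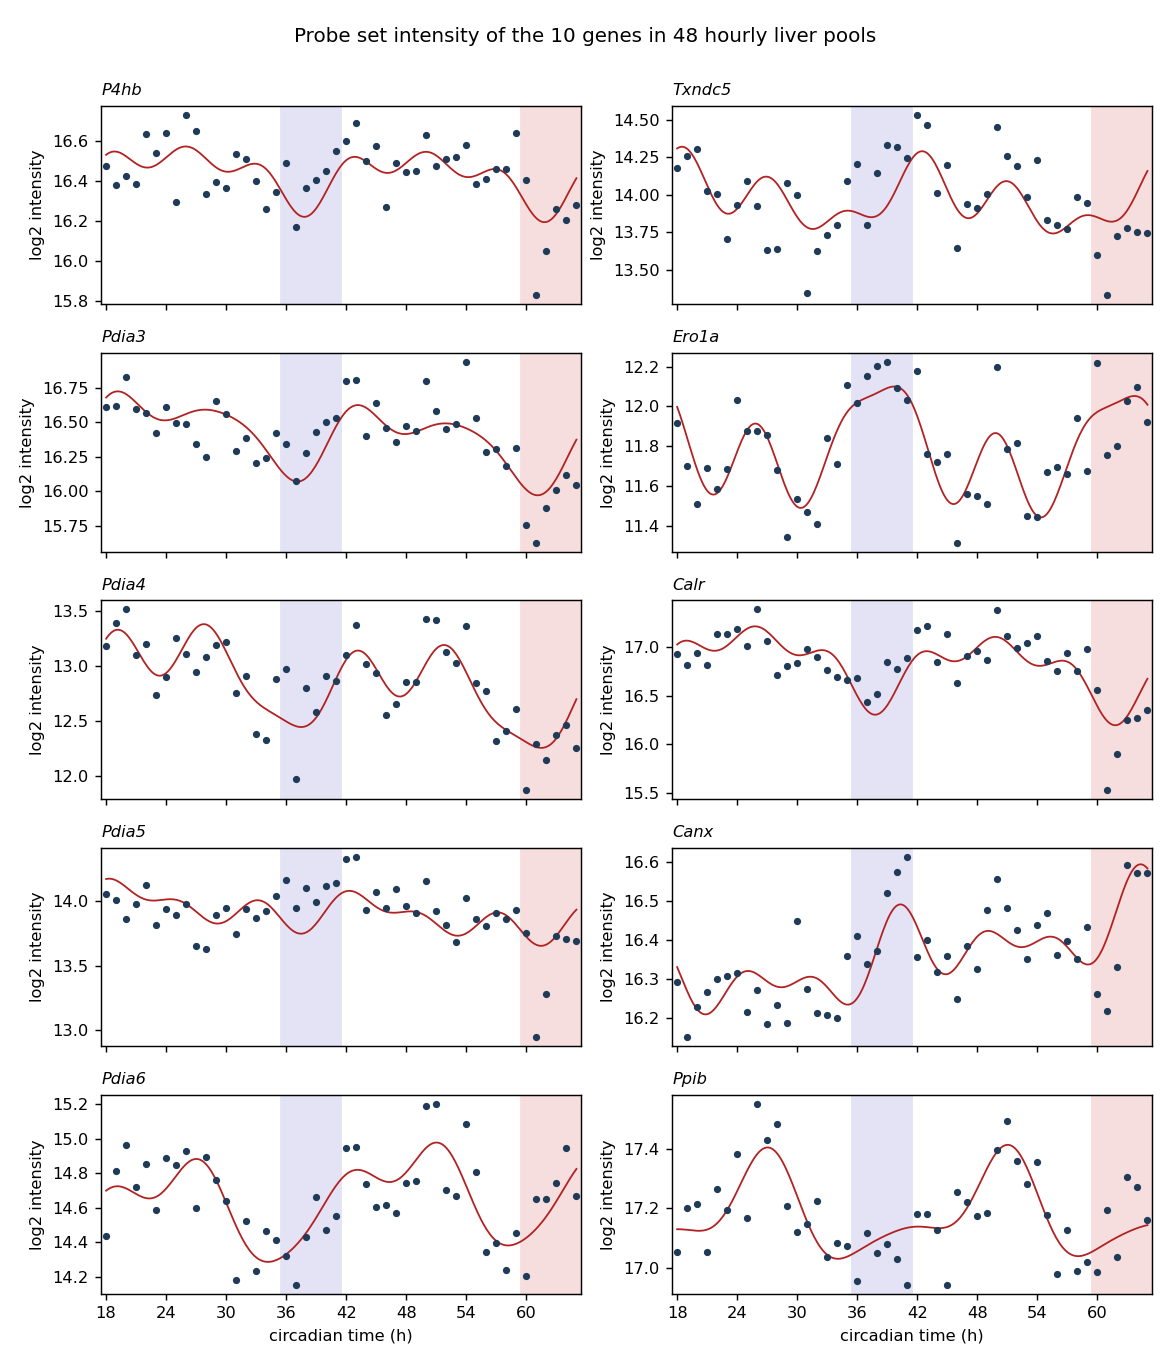
Log2 intensity of the representative probe set of each gene (y axis, own scale) against circadian time in hours (x axis), 1 point per pool, with the fitted curve of trend and 24, 12 and 8 h terms in red. CT36 to CT41 are shaded blue and CT60 to CT65 red. P4hb, Pdia3, Pdia5, Txndc5 and Calr have their lowest point at CT61. Pdia6 and Ppib are low at CT60 (intensities 18852 and 129730) and higher in the rest of the red band.

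Of the 10 transcripts, 6 had a called 24 h rhythm that peaked near subjective dawn, and 4 had a called 12 h rhythm. A 24 h term passed the threshold (limma, Benjamini-Hochberg adjusted p under 0.05 over all probe sets, the meaning of "called" throughout) in 7 of the 10 genes, against 47.4% of all probe sets. Of the 7, 6 (Calr, Pdia4, Pdia6, Pdia3, Ppib and P4hb) peaked between hours 23.5 and 1.86, and Ero1a peaked on the other side of the day. A 12 h term was called in 4 genes, Ero1a, Pdia4, Ppib and Pdia3, against 4.89% of probe sets, and an 8 h term in none, against 1.35%, although 3 (Calr, Canx and Ero1a) had an unadjusted p under 0.05 at 8 h. The count at 24 h is to be read against so common a call.

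Calr, the soluble lectin chaperone and a calcium-binding protein of the ER lumen, had a lowest intensity of 47394 at CT61, a median of 119034 and a highest of 170618 at CT26. Its maxima fell at CT26 and CT50, 24 h apart. The 24 h amplitude, measured from mid-line to peak, was 0.28 ± 0.051 log2 units (SE, 48 pools) with a peak at hour 1.63 ± 0.66 (adjusted p = 0.000122, limma), a peak-to-trough ratio of 1.48. Its 12 h amplitude was 0.11 ± 0.048 (adjusted p = 0.53).

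Pdia4 (ERp72), a disulfide isomerase with several catalytic domains, ranged between 3752 at CT60 and 11734 at CT20, with a median of 7614. It had the widest range among the representative probe sets after Calr. Both terms were called, with 0.29 ± 0.055 at 24 h (peak at hour 0.70 ± 0.68, adjusted p = 0.000277) and 0.22 ± 0.050 at 12 h (peak at hour 5.69 ± 0.46 and 12 h later, adjusted p = 0.016). In 4-pool windows its means were 8045 at CT43 to CT46, 9469 at CT49 to CT52, 6162 at CT55 to CT58 and 5115 at CT61 to CT64 of the second cycle. In the first they were 10117 at CT19 to CT22, 8786 at CT25 to CT28, 6185 at CT31 to CT34 and 6075 at CT37 to CT40. The night and dawn windows were thus the higher in both cycles. The 12 h peaks lie outside these dawn and dusk windows.

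Pdia6 (P5), an isomerase that binds Hspa5, was lowest at CT37 (18224), had a median of 25811 and was highest at CT51 (37668). Its 24 h amplitude was 0.25 ± 0.040 with a peak at hour 23.5 ± 0.56 (adjusted p = 2.03e-05). The 12 h amplitude of 0.13 ± 0.037 was not called (adjusted p = 0.092). It passed among probe sets with a mean intensity of at least 100 (adjusted p = 0.049) and after prewhitening (adjusted p = 0.029), with its peak near hour 4.36.

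Pdia3 (ERp57), the partner of Calr and Canx on glycoproteins, ranged between 50571 at CT61 and 125244 at CT54, with a median of 88296. It had terms of 0.18 ± 0.042 at 24 h (hour 0.13 ± 0.79, adjusted p = 0.00257) and 0.15 ± 0.039 at 12 h (hour 6.68 ± 0.50, adjusted p = 0.039). The 12 h call was lost in 18 of the 48 fits that leave out 1 pool. Ppib (cyclophilin B), a prolyl isomerase that also acts in collagen folding, had a narrow range, with a highest to lowest ratio of 1.52, between 125984 at CT41 and 192049 at CT26, with a median of 148062. It had 0.14 ± 0.022 at 24 h (hour 1.86 ± 0.61, adjusted p = 2.83e-05) and 0.086 ± 0.022 at 12 h (hour 3.34 ± 0.47, adjusted p = 0.029), the second lost in 7 of 48 such fits. P4hb (PDI), the founding isomerase and a subunit of prolyl 4-hydroxylase and of the microsomal triglyceride transfer protein, ranged between 58178 at CT61 and 108657 at CT26 with a median of 89446. Its 24 h amplitude was 0.10 ± 0.031 (hour 1.29 ± 1.11, adjusted p = 0.024).

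Ero1a, the oxidase that supplies the isomerases with oxidising equivalents and is also raised by hypoxia, followed another course. It was lowest at CT46 (2552), had a median of 3467 and was highest at CT39 (4777). Its 12 h term was the most significant of the 10 genes, with an amplitude of 0.18 ± 0.034 and peaks at hours 2.10 ± 0.36 and 12 h later (adjusted p = 0.00182). Its 24 h term was as large, 0.20 ± 0.035, and peaked at hour 14.8 ± 0.67 (adjusted p = 6.35e-05). Between the 2 daily maxima, the dusk-side one was the higher in the mean of both cycles. In 4-pool windows Ero1a averaged 3634 at CT49 to CT52 and 3878 at CT61 to CT64 of the second cycle, and 3625 at CT25 to CT28 and 4601 at CT37 to CT40 of the first. The windows between them averaged 3190 at CT43 to CT46 and 3429 at CT55 to CT58, and 3152 at CT19 to CT22 and 3125 at CT31 to CT34. In this probe set all 4 peak windows lay above all 4 trough windows, which held for no representative probe set of the other 9 genes. In the other probe sets of Ero1a it held for 1 and 2 of the 4 peak windows. Single pools overlapped, since CT49 (2915) was below every trough mean. The peak windows, hours 1 to 4 and 13 to 16, were set with earlier 12 h peak times known. They hold the 12 h peaks of Ero1a but not those of Pdia4 (hour 5.69) and Pdia3 (hour 6.68). Genes that peak outside them could hardly pass this comparison.

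Canx, Pdia5 and Txndc5 had no called term over all 48 pools. Canx, the membrane-bound lectin chaperone, varied the least of the 10 by brightest probe set, between 72774 at CT19 and 100201 at CT41 with a median of 83618. Its other probe sets ranged more widely, with highest to lowest ratios of 2.66 and 2.16. Pdia5, an isomerase known in human cells to act on Atf6, ranged between 7885 at CT61 and 20827 at CT43 around a median of 15656. Txndc5 (ERp46), an isomerase with several thioredoxin domains, ranged between 10293 at CT61 and 23712 at CT42 around a median of 16221. Without CT60 to CT65 all 3 had a called 24 h term, with amplitudes of 0.060 for Canx (adjusted p = 0.031), 0.15 for Pdia5 (adjusted p = 0.000339) and 0.22 for Txndc5 (adjusted p = 0.000579). Their peaks then lay at hours 16.8, 17.4 and 18.2, around the middle of the subjective night. Calr peaked at hour 0.38, Pdia4 at hour 23.9 and Pdia6 at hour 23.8 in the same fit. In that fit 9 of the 10 genes had a 24 h term, against 21.9% of all probe sets, P4hb alone losing it (adjusted p = 0.14). A 12 h term was called in 3 (Ero1a, Pdia4 and Canx), against 3.90%, with Pdia3 (adjusted p = 0.065) and Ppib (adjusted p = 0.29) no longer called. These calls are of the brightest probe sets. In the same fit the second of Txndc5 had a called 12 h term (adjusted p = 0.026, limma) and no called 24 h term (adjusted p = 0.093). The dimmer probe sets of Canx had adjusted p of 0.027 and 0.13 at 24 h and of 0.92 and 0.82 at 12 h.

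The 24 h amplitude was the larger in 9 of the 10 genes, Canx being the other. Tested directly, however, the difference between the 2 amplitudes was called in none of the 10 (limma coefficients, normal test), and at an unadjusted p under 0.05 the 24 h amplitude was the larger in 2, Calr and Pdia6, and the 12 h amplitude in 0. Over the array, 0.113% of probe sets had a larger 12 h and 5.35% a larger 24 h amplitude. The largest gap among the members was that of Calr, -0.17 ± 0.067 (12 h minus 24 h, adjusted p = 0.12), and the smallest that of Pdia5, -0.00097 ± 0.061. Without CT60 to CT65 the 24 h amplitude of Pdia5 exceeded its 12 h amplitude, by 0.14 (adjusted p = 0.0027).

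The 10 genes were set beside the Hsp70 and Hsp90 chaperones of the ER and their cofactors, without a test between the lists. Of 11 such genes, 8 had a called 12 h term, all 11 a called 24 h term and 4 (Hspa5, Hspa13, Dnajb9 and Creld2) a 12 h amplitude above the 24 h amplitude. The share of all genes was 7.13% for a called 12 h term and 52.7% for a called 24 h term. The 12 h amplitudes of Hsp90b1 (0.12), Sil1 (0.13), Dnajb11 (0.17) and Dnajc3 (0.051) were within the range of the 10 genes, and Sil1, Dnajb11 and Dnajc3 had a called 24 h term only. The median 12 h amplitude was 0.10 over the 10 members, 0.37 over these 11 and 0.039 over all genes, and the median 24 h amplitude was 0.16, 0.23 and 0.064. Against Hspa5, with a 12 h amplitude of 0.37, every one of the 10 was smaller, and all 95% intervals of the difference lay below 0. The difference was -0.16 (-0.29 to -0.025) for Pdia4, the closest, -0.20 (-0.28 to -0.12) for Ero1a and -0.33 (-0.44 to -0.21) for P4hb, the farthest. At 24 h the intervals of 9 of the 10 held 0, for example 0.11 (-0.017 to 0.23) for Calr and 0.11 (-0.018 to 0.24) for Pdia4, and that of Canx lay below it, -0.14 (-0.23 to -0.048). The 3 genes with the stress element in the stretches above had a called 24 h term only (Calr and Pdia6) or no called term (Canx). Without CT60 to CT65 Canx had both, in its brightest probe set. The element was also in 4 of 7 promoters of the 11 chaperones. Of these, Hspa5 and Creld2 had a 12 h amplitude called above the 24 h amplitude, Hsp90b1 had both terms with no called difference, and Dnajc3 had a 24 h term only (adjusted p = 0.92 at 12 h), so genes with the element did not share 1 pattern.

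**Figure D2:**
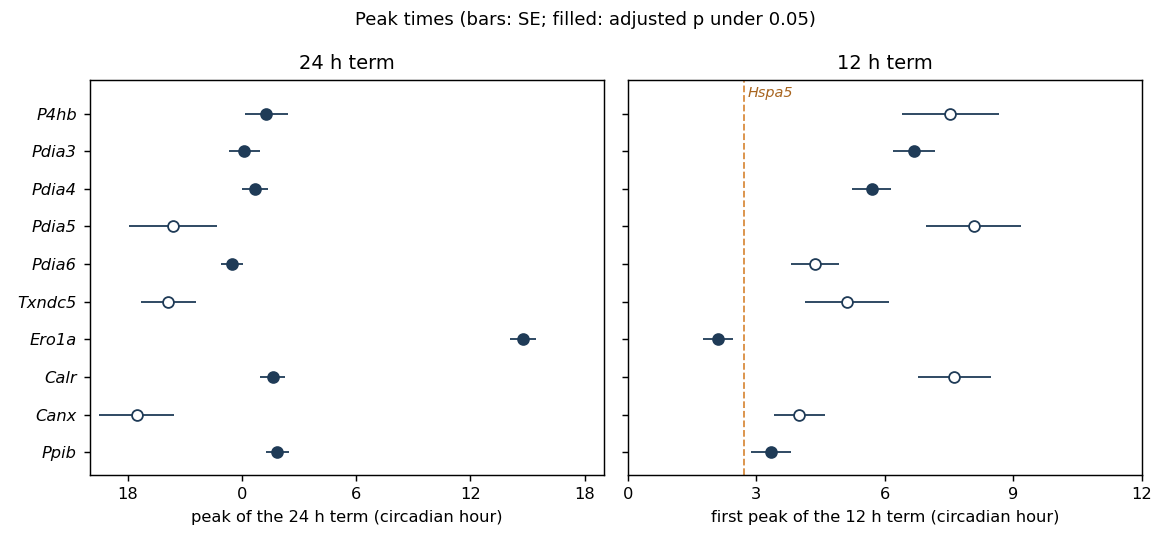
Peak hour of the 24 h term (left) and first peak hour of the 12 h term (right) for each gene, in circadian hours with SE. Filled points have an adjusted p under 0.05, and the dashed line marks Hspa5. Of the filled 24 h peaks, 6 lie from hour 23.5 to hour 1.86 and that of Ero1a at hour 14.8. The filled 12 h peaks run from hour 2.10 (Ero1a) to hour 6.68 (Pdia3).

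The genes also differed in peak time. In the 12 h term, Ero1a peaked ahead of Hspa5 (difference -0.60 h, 95% interval -1.24 to 0.036) and Ppib 0.64 h after it (-0.39 to 1.67), so neither could be told from Hspa5. Pdia4 peaked 2.99 h after Hspa5 (1.96 to 4.02) and Pdia3 3.98 h after (2.80 to 5.15). Pdia3 followed Pdia4 by 0.99 h (0.15 to 1.83), and both followed Ero1a, by 4.58 h (3.23 to 5.93) and 3.59 h (2.39 to 4.79). In the 24 h term Pdia6 peaked ahead of Calr (difference -2.15 h, -3.90 to -0.39) and of Ppib (-2.38 h, -3.69 to -1.07). Its intervals against Pdia3 (-2.21 to 0.90), Pdia4 (-2.50 to 0.056) and P4hb (-4.43 to 0.82) held 0, and without CT60 to CT65 Pdia3 had the earlier peak, at hour 22.2 beside 23.8 for Pdia6. The peak hour of Pdia6 was 23.5 in each cycle. Without CT60 to CT65 it was 23.8, with Calr at hour 0.38 and Ppib at hour 2.32, so the lead over Calr was smaller. The dimmer probe set of Ppib peaked at hour 23.6 over all pools, and the lead over Ppib was not seen with it. Pdia3, Pdia4, P4hb, Calr and Ppib lay within 1.73 h of each other, and of their 10 pairs only Calr and Pdia3 had an interval without 0 (1.50 h, 0.20 to 2.79). In the brightest probe sets Ero1a was close to opposite in phase, at -11.1 h from Ppib (-12.9 to -9.31). From Pdia3 it lay at -9.37 h (-11.7 to -7.07). The other probe sets of Ero1a peaked later, at hours 17.2 and 16.9, and the second of Ppib at hour 23.6. The distance was smaller in those.

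The 24 h term differed between the cycles in some of the genes. Its interaction with cycle, which takes amplitude and peak time together and was added after seeing the data, was called in 3 of the 10 (limma), against 5.88% of probe sets. Pdia5 (adjusted p = 0.0067) had an amplitude of 0.22 ± 0.055 with a peak at hour 23.8 in the second cycle, and 0.14 ± 0.032 at hour 15.9 in the first. Txndc5 (adjusted p = 0.0071) had 0.21 ± 0.055 at hour 0.40 in the second cycle and 0.27 ± 0.056 at hour 17.4 in the first. Pdia3 (adjusted p = 0.038) had 0.32 ± 0.055 at hour 1.20 in the second cycle and 0.16 ± 0.036 at hour 21.6 in the first. The term of Pdia4, with peaks at hour 1.43 in the second cycle and hour 23.1 in the first, was not called different (adjusted p = 0.29), nor was that of the second probe set of Txndc5 (adjusted p = 0.16). Ero1a was not called in its brightest probe set (adjusted p = 0.79, limma). A dimmer one (mean intensity 1463) was called (adjusted p = 0.037), with peaks at hour 20.8 in the second cycle and hour 15.6 in the first. Without CT60 to CT65 none of the 10 was called (limma, adjusted p = 0.99 each), against 0.0843% of probe sets, and none had an unadjusted p under 0.05. The 3 calls were thus not seen without those pools. The second cycle then lacks its last 6 hours and the fit could detect less, so this does not show that the terms were equal.

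Dusk-side hours (13 to 16, that is CT37 to CT40 and CT61 to CT64) were next set against dawn-side hours (1 to 4, CT25 to CT28 and CT49 to CT52), 8 pools each. Of the 10 genes, 3 were called lower on the dusk side, against 3.78% of probe sets, and none higher, against 2.72% (limma; 1, Ero1a, at an unadjusted p under 0.05). Calr had a lowest, median and highest intensity of 47394, 83657 and 117306 on the dusk side, against 107412, 133849 and 170618 on the dawn side. Of its 8 dusk-side pools, 6 were below every dawn-side pool, and the difference was -0.75 ± 0.17 log2 units (adjusted p = 0.0152). Pdia4 had 4021, 5479 and 7706 on the dusk side, against 7423, 8906 and 11013 on the dawn side, with 7 of the 8 below every dawn-side pool and a difference of -0.71 ± 0.13 (adjusted p = 0.00377). Ppib had 133733, 140287 and 161984 on the dusk side, against 147322, 174635 and 192049 on the dawn side, a difference of -0.25 ± 0.061 (adjusted p = 0.026). The groups overlapped in all 3. P4hb, Pdia3 and Pdia6 had differences of -0.29, -0.37 and -0.30 that did not pass (adjusted p = 0.059, 0.066 and 0.089). Ero1a had 3459, 4375 and 4777 on the dusk side, against 2915, 3663 and 4695 on the dawn side, a difference of 0.22 ± 0.090 (adjusted p = 0.093).

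**Figure D3:**
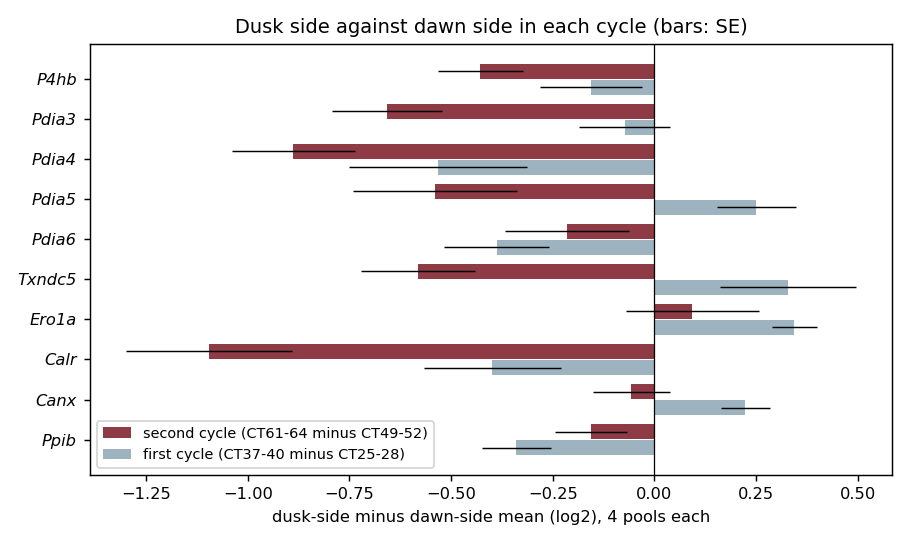
Dusk-side minus dawn-side mean log2 intensity (x axis) for each gene, in the second cycle (dark) and the first (light), 4 pools on each side, with SE from the spread of the pools. Calr falls by 1.10 in the second cycle and by 0.40 in the first. Pdia5, Txndc5 and Canx are below 0 in the second cycle and above 0 in the first.

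Each cycle was also taken alone, a split chosen after seeing the data. The second cycle gave 5 called genes (Calr, Pdia4, Pdia3, P4hb and Txndc5), against 44.8% of all probe sets, and the first gave 1, Ero1a, against 0.774%. Calr differed by -1.10 in the second cycle and by -0.40 in the first (adjusted p = 0.37 in the first alone), and Pdia4 by -0.89 and -0.53. Ero1a was higher at dusk by 0.093 in the second cycle and by 0.34 ± 0.053 in the first (adjusted p = 0.047), where its values were 4546, 4717, 4777 and 4374 at CT37 to CT40, against 3761, 3762, 3713 and 3288 at CT25 to CT28, without overlap. A dimmer probe set of Ero1a (mean intensity 1463) turned sign, with -0.11 in the second cycle and 0.83 in the first. Its difference between the cycles, -0.93 ± 0.23, was called (adjusted p = 0.036, limma interaction). The dimmest had 0.11 and 1.18 (difference -1.08 ± 0.38, adjusted p = 0.16). Txndc5 turned sign in its brighter probe set. It was -0.58 in the second cycle and 0.33 in the first, and the difference between the cycles, -0.91 ± 0.21, was called (adjusted p = 0.026), as in 4.46% of probe sets. Its other probe set had -0.65 in the second cycle and 0.0082 in the first (difference -0.66 ± 0.23, adjusted p = 0.16). Pdia5 had -0.54 and 0.25 (difference -0.79 ± 0.21, adjusted p = 0.057) and Pdia3 -0.66 and -0.073 (difference -0.58 ± 0.17, adjusted p = 0.074). With CT61 to CT64 left out, Ppib was the gene still called, against 2.33% of probe sets. The call of Ppib was seen in its brighter probe set, and the other (mean intensity 84397) had a dusk minus dawn difference of -0.084 ± 0.064 over both cycles (adjusted p = 0.29), with 0.026 in the second cycle and -0.19 in the first.

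In the last 6 pools 5 of the genes were lower. Between CT60 to CT65 and the same hours of the first cycle, CT36 to CT41 (a comparison added after seeing the data), Calr, Pdia3, Pdia4, Pdia5 and Txndc5 were called lower, against 10.9% of probe sets, and none of the 10 higher, against 38.4% (limma; 1, Ppib, at an unadjusted p under 0.05). Pdia5 had a lowest, median and highest intensity of 7885, 13303 and 13819 in the late pools, against 15793, 17722 and 18373 in the earlier ones, with no overlap and a difference of -0.56 ± 0.13 (adjusted p = 0.0108). Txndc5 had 10293, 13626 and 14069 in the late pools, against 14279, 19143 and 20621, also without overlap (-0.52 ± 0.10, adjusted p = 0.00582). Calr had 47394, 78310 and 96295 in the late pools, against 88474, 108428 and 121293 (-0.54 ± 0.16, adjusted p = 0.021), and 5 of its 6 late pools lay below all of the other 42 pools of the series. For Pdia3 this was also 5 of 6, with 50571, 62996 and 71056 in the late pools, against 68983, 85498 and 94600 (-0.45 ± 0.098, adjusted p = 0.00807). Pdia4 differed by -0.45 ± 0.17 (adjusted p = 0.044). Ero1a had -0.15 in its brightest probe set and was not called (adjusted p = 0.12, limma). Its dimmer probe sets were called lower, by -0.42 and -0.55 (adjusted p = 0.010 and 0.015). The values of Pdia6 and Ppib were 0.21 and 0.13 higher and did not pass (adjusted p = 0.15 and 0.074), so the fall was not shared by all 10. Markers of other liver cells moved in the same pools, in both directions. Of 6 endothelial markers, 4 were called lower in the late pools (log2 difference -1.01 for Stab2, -0.84 for Cdh5, -0.68 for Kdr and -0.36 for Pecam1), Lyve1 had -0.25 and was not called, and Clec4g was higher by 0.31. Their median was -0.52, beside -0.34 over the 10 genes, and their summed intensity, most of it from Clec4g, was 26640 to 29555 in the late pools, against 25636 to 28722. Of 7 stellate cell markers, Reln (-0.84) and Pdgfrb (-0.59) were called lower and Lrat (0.52) higher. Of 7 Kupffer cell markers, Cd68 (-1.55) was called lower and Vsig4 (0.32) and Adgre1 (0.34) higher. Of 6 plasma and B cell markers, 3 (Jchain, Cd79a and Mzb1) averaged under 100, near background. Sdc1 (-0.34, 66144 against 83443) was called lower and Ms4a1 (0.31, 230 against 186) higher. This list therefore says little about such cells. The part of these cells was not tested.

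Between whole cycles 2 of the 10 genes differed in level. Over the 24 pairs of hours, second minus first, Canx was higher by 0.091 ± 0.025 (17 of 24 hours, adjusted p = 0.0042), as were 42.3% of probe sets. Pdia4 was lower by -0.17 ± 0.072 (7 of 24 hours higher, adjusted p = 0.048), as were 11.2%, and this call was lost under each of 4 alternatives. A difference of the 12 h term between cycles was called in none of the 10, against 0.00222% of probe sets (limma interaction), and 4 (Pdia5, Pdia6, Calr and Ero1a) had an unadjusted p under 0.05. The fitted 12 h amplitude was 0.24 ± 0.066 in the second cycle and 0.013 ± 0.034 in the first for Calr, and 0.24 ± 0.051 and 0.038 ± 0.047 for Pdia6. For Ero1a it was 0.12 ± 0.052 in the second cycle and 0.25 ± 0.029 in the first, with peaks at hours 3.20 and 1.57.

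The other probe sets of a gene did not always follow its representative. The 3 of Calr correlated at 0.981 to 0.989 over the 48 pools and each had a called 24 h term, and the 2 of Ppib correlated at 0.80 (adjusted p = 0.17 for the 12 h term of the dimmer) and the 2 of Txndc5 at 0.76. The 3 of Canx correlated at only 0.30 to 0.43. The 3 of Ero1a correlated at 0.38 to 0.84, and all had a called 24 h term, of amplitude 0.45 ± 0.078 with a peak at hour 16.9 in the dimmest, of mean intensity 1336. The 12 h term of Ero1a was called in its brightest probe set alone, with adjusted p of 0.41 and 0.96 in the others. Second probe sets of Pdia3, Pdia4 and Pdia6 averaged 113.9, 46.6 and 60.2, near the background of the array. In all, 13 of the 21 probe sets had a called 24 h term and 4 a called 12 h term.

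The members did not move as 1 block. Among their 45 pairs, the correlation over the 48 pools had a median of 0.32 and ran from -0.27 (Pdia4 and Ero1a) to 0.91 (P4hb and Calr). These are descriptions over pools that share array scaling and the late fall. Pdia3 went with Pdia4 (0.85) and Calr (0.80), Pdia5 with Txndc5 (0.72), and Pdia6 with Ppib (0.69), while Ero1a reached at most 0.39, with Canx. Averaged over the 10 after scaling each gene to its own mean and SD, the highest pool was CT50, with all 10 above their own means, and the lowest CT61, with 1 above. The genes outside the 10 that most resembled this average over 48 pools were Dnajb11 (r = 0.925), a J-domain cofactor of Hspa5, Papss1 (0.897), which makes the sulfate donor, Oasl1 (0.860), Mogs (0.853), the first glucosidase of glycan trimming, and Copg1 (0.848), a subunit of the COPI coat.

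Over all genes, 7.13% had a called 12 h term and 52.7% a called 24 h term. The counts of the lists that follow are to be read against these shares. Of the other genes of the pathway, 3 of 15 further members of the disulfide isomerase family had a called 12 h term and 10 a 24 h term. The 3 were Erp29 (0.12 ± 0.030, hour 5.56), Erp44 (0.084 ± 0.020, hour 5.27), which retains Ero1a in the ER, and Txndc11 (0.23 ± 0.054, hour 0.30). Of 9 redox partners, 1 had a 12 h term, Ero1b, the second Ero1 oxidase (0.19 ± 0.043, hour 3.35), and 6 a 24 h term. Of 10 genes of glycan trimming and lectins, none had a 12 h term and 4 a 24 h term, and of 6 further prolyl isomerases, none and 3. Among 4 partners of P4hb, P4ha1, the catalytic subunit of prolyl 4-hydroxylase, had a 12 h term of 0.36 ± 0.065 at hour 1.85, beside hour 2.10 for Ero1a. Of 7 sensors and factors of the unfolded protein response, Eif2ak3 (Perk, 0.26 ± 0.048, hour 0.50) and Ddit3 (Chop, 0.33 ± 0.059, hour 1.45) had a 12 h term and 4 a 24 h term.

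The rule of the study's own methods was rebuilt here. It needs Fisher's G-test and a COSOPT-type cosine fit to pass together (Storey q under 0.05) and takes the class from the fitted period. Over the array it placed 4499, 347 and 122 probe sets in the 24, 12 and 8 h classes. The study reported fewer in each. Of the 10 genes P4hb alone missed the cosine fit (p = 0.34, q = 0.057), so the G-test decided for the others. By this rule 3 of the 10 genes were in the 24 h class, against 9.98% of probe sets. They were Calr (fitted period 25.6 h), Pdia6 (23.3 h) and Ppib (22 h). None was in the 12 h class, against 0.769%, or the 8 h class, against 0.271%, and with unadjusted p under 0.05 in both tests none entered either. Pdia3 and Pdia4 passed both tests with a fitted period of 30 h, at the edge of the search, and so fell in no class. Ero1a missed the G-test in its brightest probe set (q = 0.060) and was in the 24 h class by its dimmest (26.4 h). Of the 11 chaperones listed above, 6 were in the 12 h class (Hspa5, Hspa13, Dnajb9, Sdf2l1, Manf and Creld2).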

How the data were processed

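The authors hybridised RNA of each pool to 1 array; 48 arrays were used. The deposited values are one intensity per probe set on a linear scale. The study's methods name GCRMA, and the labels name MAS5, without a version; which gave the deposited intensity values was not tested. Signal over background limits dim probe sets (49.5% had a mean under 100), and 1 pool per hour limits every estimate. Intensities were taken to log2 without further normalization. Probe sets were named from the platform annotation (34958 with 1 symbol, 932 with several, 9211 with none). In limma 3.58.1 (R 4.3.3) the 24, 12 and 8 h terms were fitted together with a straight-line trend to all 45101 probe sets, by moderated F tests and Benjamini-Hochberg adjustment; amplitude differences were tested by a normal test on delta-method errors. The median lag-1 autocorrelation of residuals was -0.068 over all probe sets and -0.16 to 0.43 in the 10 genes. G-test and cosine fit (4 to 30 h, 1000 scramblings) ran in Python 3.11.15. Scripts were tested on simulated data. Alternatives covered scale, trend, normalization, filtering, autocorrelation, probe set choice and pools left out. All 10 genes are named, each by its brightest probe set. Genes and lists were chosen with earlier results of these data known. Protein sequences were not used here.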

Additional observations from a re-analysis of the deposited data

Results flagged for a closer look

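The dusk-side minus dawn-side difference of Txndc5 differed between the cycles by -0.91 log2 units (second minus first, adjusted p = 0.026, limma interaction). Its mean intensity was 12818 at CT61 to CT64 and 19192 at CT49 to CT52 in the second cycle, and 18165 at CT37 to CT40 and 14463 at CT25 to CT28 in the first. The other probe set of the gene, with -0.65 in the second cycle and 0.0082 in the first, had no called difference (adjusted p = 0.16). The 24 h term differed between the second cycle and the first in Pdia5 (adjusted p = 0.0067, limma interaction), Txndc5 (adjusted p = 0.0071) and Pdia3 (adjusted p = 0.038). It did so in none of the 10 genes without CT60 to CT65, a fit that could detect less. The dusk-side pools of the second cycle are among those that stood apart. Of 20 groups of 8 pools checked for a single pool far from the others, none passed Dixon's 95% limit.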

How the results depend on the processing

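The study has 1 pool per hour and array values whose depth is set by signal over background; a pool's own error cannot be separated from the hour. Among the 10 genes, counts were called at 12 h (4), at 24 h (7) and at 8 h (0). These kept within 1.5 times under every planned change of scale, trend, normalization, filter, prewhitening and probe set, and without CT60 to CT65. The prewhitening used the array-wide median of -0.068 for every probe set. It left higher values of single genes in place, up to 0.43 in Pdia5, so it could not test the part of their autocorrelation. Leaving out 1 pool at a time gave 2 to 5 at 12 h (2 without CT26 or CT45), 7 to 8 at 24 h, 0 to 1 with a larger 24 h amplitude and 2 to 5 for dusk against dawn (5 without CT39 or CT40). A larger 24 h amplitude was called in 1 gene on linear values and in 1 without CT60 to CT65. Dusk against dawn was called in 5 genes among probe sets of mean at least 100. With hours 12 to 17 against 0 to 5 it was called in 7, beside 21882 of all 45101 probe sets. The 7 are to be read against so common a call. Without CT61 to CT64 it was called in 1, beside 2.33% of probe sets. The second cycle alone gave 5, beside 44.8%, and the first alone gave 1, beside 0.774%. Level between cycles was called in 2 genes, and in 1 on linear values, after quantile normalization, with the filter and without CT60 to CT65 and CT36 to CT41. The 24 h class of both tests held 5 genes after quantile normalization.

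Over all probe sets, the 24 h count was 10553 after quantile normalization, 11198 with the filter and 9875 without CT60 to CT65, in place of 21375. The 8 h count (607) was 913 with a quadratic trend, 365 after quantile normalization, 971 with the filter, 911 after prewhitening and 392 to 812 with 1 pool left out. Dusk against dawn (2931) gave 1051 without CT61 to CT64, 21882 with the wider hours, 20204 and 349 in the second and first cycle alone, and 1864 to 5315 with 1 pool left out. The 12 h term differed between cycles in 1, and in 2 on linear values, 0 after quantile normalization, 0 with the filter and 45 without CT60 to CT65. The 24 h term differed between cycles in 2654, and in 38 without CT60 to CT65; among the 10 genes it did so in 3, in 2 on linear values, 2 after quantile normalization, 3 with the filter and 0 without CT60 to CT65. Level between cycles (24100) gave 7823 after quantile normalization and 7894 with the filter. The class counts gave 6960 at 24 h with the trend removed before both tests, and at 8 h 69 by Benjamini-Hochberg and 68 after quantile normalization. The filter tests fewer probe sets; the cause of the other changes was not tested. The pools carry no replicate numbers, so pools were paired by hour alone, in the comparison of level between cycles.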
